A study of Homo sapiens with 15 samples.

Results

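Genes that mark the fibroblast in a culture of kidney epithelium and fibroblasts were followed here from fibroblasts grown alone into a mixed culture on an LN/PC membrane. A gene was taken when its mean on the deposited log2 scale was at least 6 units higher in the fibroblast monocultures than in both epithelial monocultures. By that rule 51 of the 15790 genes in the table were chosen. The genes nearest the rule were LTBP1 (6.01 units), MXRA8 (6.02) and TMEM119 (6.03) inside it, and SVEP1 (5.93), EMILIN1 (5.86) and FN1 (5.85) outside it.

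The study sequenced poly-A RNA of 15 human cultures, 3 in each of 5 groups, collected 14 days after seeding. fHDF/TERT166 is an immortalized line of dermal fibroblasts from foreskin, and RPTEC/TERT1 is an immortalized line of renal proximal tubule epithelium. The fibroblast group held fHDF/TERT166 alone, and the LN/PC co-culture group held both lines, with fibroblasts seeded first at 14000 and epithelial cells at 140000 per cm2. The 3 other groups were RPTEC/TERT1 alone on LN/PC, RPTEC/TERT1 alone on LN/FN-silk, a membrane of recombinant spider silk, and both lines together on LN/FN-silk. Each cell type is represented by 1 line, the fibroblasts are dermal and not renal, and each sample pooled 3 to 8 membranes. LN/PC membranes were cut out of their holder, silk membranes were scraped off, and the fibroblasts came from the well bottom. These cells are basolateral by the protocol but monocultures by their titles, and were taken as grown alone. Culture partner, surface and harvest changed together between fibroblasts alone and the LN/PC co-culture, so they cannot be told apart. Nothing in the labels states that replicates came from separate cultures, so p-values cover only the sample-to-sample spread, which may be technical. In the limma fits below, that spread is shared over all tested genes and is not that of the single gene. A call lost or gained when a library is left out therefore need not come from that gene's own values.

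Fibroblasts build the interstitial matrix: they secrete the chains of fibrillar collagens, coat the fibrils with small leucine-rich proteoglycans, lay down microfibrils and elastin, and turn the matrix over with proteases held in check by inhibitors. They sense that matrix and their neighbours through receptors such as the PDGF receptors, collagen-binding integrins and DDR2. In the kidney, cells of this kind lie between the tubules and the vessels and exchange growth factors with the tubular epithelium.

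Totals ran from 12.2 to 12.7 in the fibroblast libraries and from 10.4 to 11.7 in the LN/PC co-cultures, in units of 1e6 normalized counts. All 12 fibroblast markers checked were at 10 or more in every fibroblast library, and 9 of 16 kidney epithelial markers were at 0 in all of them. All 16 epithelial markers were present in the co-cultures, where their summed level ran from 201260 to 363879 normalized counts. ANPEP, an aminopeptidase of the tubular brush border that was listed among the epithelial markers, was high in the fibroblasts as well.

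As a group, the 51 genes stood well below their fibroblast level in the LN/PC co-culture, and by very unequal amounts. Taken over the genes, the median level was 15.8%, 9.48% and 18.1% of the fibroblast mean in LN/PC co-cultures 1, 2 and 3 (mean 14.5 ± 4.48%, SD, n = 3). Single genes ran from 0.954% for ADH1B to 62.9% for MME, a 65.9-fold span, with quartiles at 7.87% and 23.8% around a median of 14.2%. Each of the 51 genes was lower in every co-culture library than in every fibroblast library. The genes were chosen for their level in these same fibroblast libraries, so that direction is a description and carries no test. In bulk RNA fewer fibroblasts and less of a transcript per fibroblast cannot be told apart, so the median over the genes was taken as the reference. What follows is how far each gene lay from that reference.

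**Figure D1:**
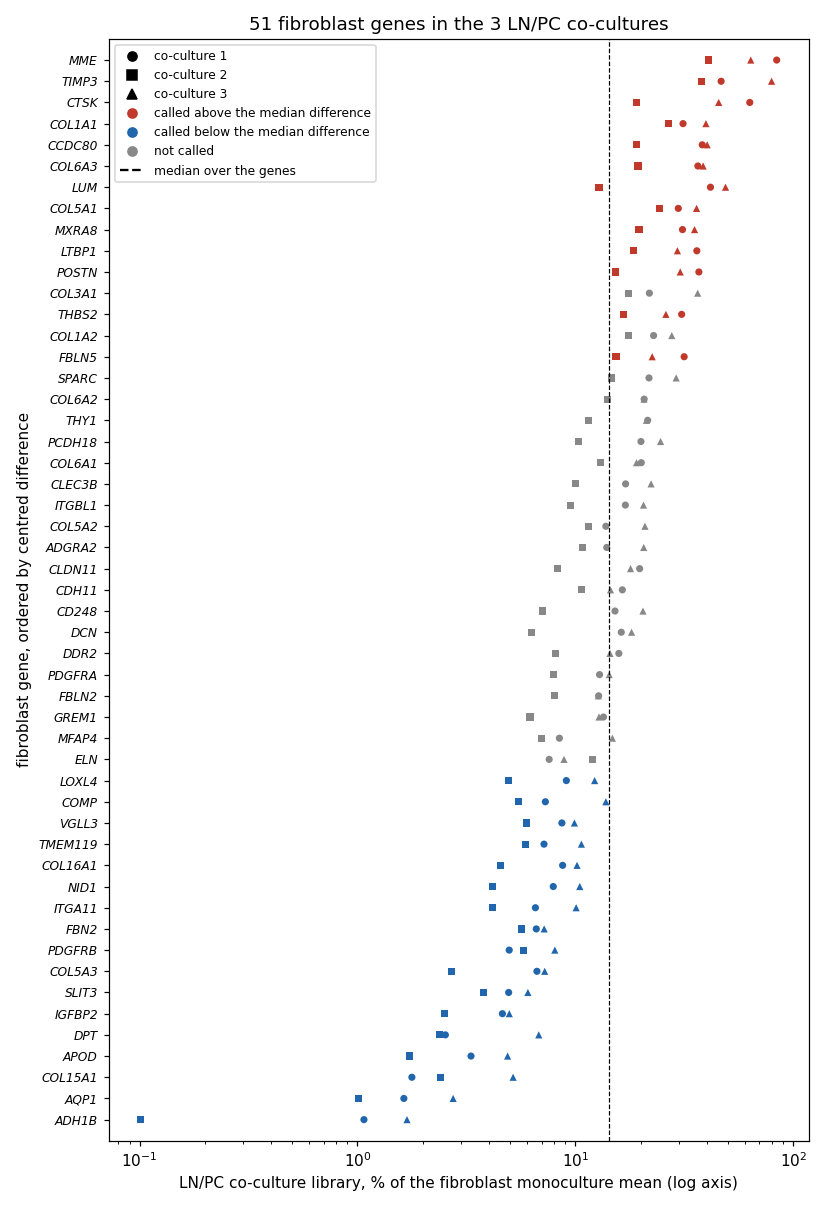
Level of each of the 51 genes in the 3 LN/PC co-culture libraries as a percent of the fibroblast monoculture mean, on a log axis, ordered by the centred difference. The genes run from ADH1B near 1% to MME at 63%, and co-culture 2 (squares) is the lowest library for 48 of the 51 genes.

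The centred difference of a gene is its mean log2(normalized count + 1) in the co-culture minus that in fibroblasts, after each library was shifted so that the median over the 51 genes was 0. Before the shift that median was -2.87, and -2.66, -3.40 and -2.46 in the 3 co-cultures. By limma with Benjamini-Hochberg adjustment over 14025 tested genes, 13 of the 51 genes were called above the median difference, 17 below it and 21 were not called, at an adjusted p under 0.05. At an unadjusted p under 0.05 the number called was 30 as well. On the same centred scale the median of all tested genes was 2.85, and 94.6% of them were called higher and 1.16% lower, so the adjustment hardly raises a p. With Bonferroni adjustment, an alternative chosen after seeing the data, 2 genes were above and 6 below. Centring on the summed level of the 51 genes instead of their median gave 3 above (MME, TIMP3 and CTSK) and 26 below, so the zero moves with the reference, while the order of the genes is the same by construction. For 42 of the 51 genes the centred co-culture and fibroblast libraries did not overlap (96.2% of all tested genes), among them each of the 30 called.

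**Figure D2:**
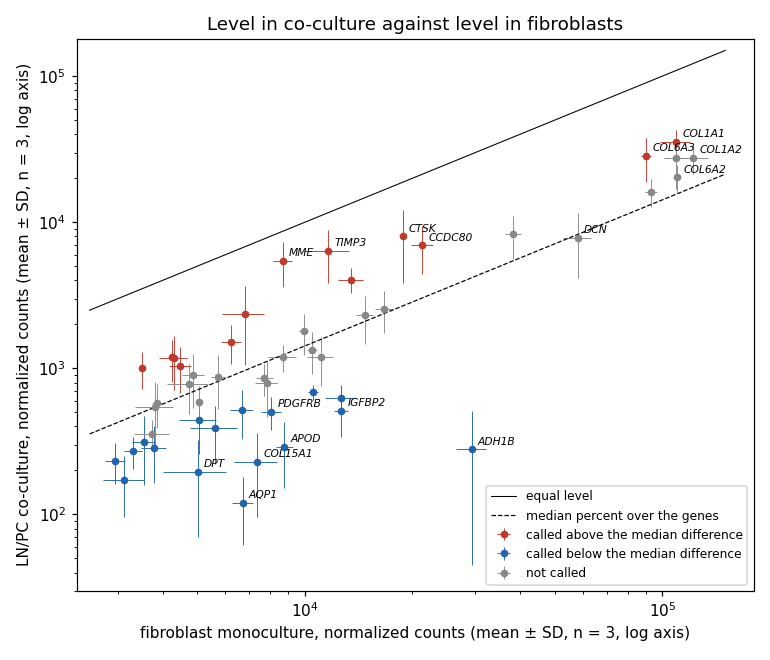
Mean level in the LN/PC co-culture against mean level in fibroblasts alone, in normalized counts on log axes, with bars of 1 SD over 3 libraries. The solid line marks equal levels and the dashed line the median of 14.2%: MME, TIMP3 and CTSK lie nearest to the solid line, and ADH1B and AQP1 farthest below the dashed one.

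MME, TIMP3 and CTSK had the largest centred differences of the 51 genes. MME encodes neprilysin, a membrane peptidase of fibroblasts and also of the tubular brush border. It stood at 8081, 8947 and 9024 normalized counts in fibroblasts alone and 7289, 3543 and 5543 in the LN/PC co-cultures. Co-culture 1 came close to the lowest fibroblast library without reaching it, and the LN/PC monocultures held only 2.44, 2.32 and 13.5. The centred difference of MME was 2.14 ± 0.35 (SE, n = 3 per group, adjusted p = 4.95e-09). TIMP3, a metalloproteinase inhibitor that binds to the matrix, had 13290.4, 11686 and 9908 normalized counts in fibroblasts alone and 5427, 4426 and 9248 in the LN/PC co-cultures. Here co-culture 3 was nearest to the fibroblasts, and the centred difference was 1.94 ± 0.35 (adjusted p = 1.38e-07). CTSK, the cysteine protease cathepsin K that cuts fibrillar collagen, had 18479, 19025 and 18908 normalized counts in fibroblasts alone and 11878, 3579.8 and 8552 in the LN/PC co-cultures. Co-culture 1 held the most CTSK and co-culture 2 the least, and the centred difference was 1.47 ± 0.36 (adjusted p = 7.73e-05). TIMP3 and CTSK were the only members in the list of matrix proteases and inhibitors, and both were called above the median. Of the 27 other genes of that list that were tested, 3 were called lower and 14 higher on the centred scale, against 1.16% and 94.6% of all tested genes. Higher on this scale means above the median of the 51 genes and does not mean raised in co-culture.

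Collagen genes lay on both sides of the median. Of 27 collagen genes measured 11 met the rule, and of these 3 were called above the median, 3 below and 5 neither way, with a median centred difference of 0.41. COL1A1, one of the chains of collagen I, the main fibrillar collagen of skin, was at 101025, 121071 and 105708 normalized counts in fibroblasts alone and 34096, 29195 and 43429 in the LN/PC co-cultures. All 3 co-cultures lay well under the fibroblast libraries and yet above the median of the 51 genes, with a centred difference of 1.23 ± 0.42 (adjusted p = 0.00403). COL6A3, a chain of the beaded-filament collagen VI, had 87139.7, 90661 and 92683 normalized counts in fibroblasts alone and 32914, 17476 and 34790.3 in the LN/PC co-cultures. Its 3 co-cultures lay close together once centred (SD 0.089), at 1.14 ± 0.41 (adjusted p = 0.0066). With all 15 libraries in the fit the calls of COL1A1 (adjusted p = 0.130) and COL6A3 (0.235) were lost. COL5A1, a chain of collagen V that sets the width of collagen I fibrils, gave 1.11 ± 0.35. COL3A1 (0.82 ± 0.42, adjusted p = 0.0525) and COL1A2 (0.71 ± 0.42, adjusted p = 0.0962) were not called. Alternatives moved these 2 both ways, to adjusted p = 0.0141 and 0.0117 with 1 constant for all libraries and to 0.324 and 0.471 with all 15 libraries in the fit. With any one of the LN/PC co-cultures left out both were called (0.0132 to 0.0163 and 0.0120 to 0.0447), and with any one of the fibroblast libraries left out neither was (0.121 to 0.153 and 0.169 to 0.243). COL6A2, COL6A1 and COL5A2 lay at 0.41, 0.32 and 0.12 and were not called.

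COL15A1, COL5A3 and COL16A1 were the collagens called below the median. COL15A1, a collagen of the basement membrane zone, had 8026, 7841 and 6177 normalized counts in fibroblasts alone and 131, 177 and 381 in the LN/PC co-cultures. It reached 3.12% of its fibroblast level, with co-culture 1 the lowest and co-culture 3 the highest, a centred difference of -2.27 ± 0.34 (adjusted p = 1.88e-10). COL5A3, a less common chain of collagen V, was at -1.42 ± 0.34, and COL16A1, a fibril-associated collagen, at -0.89 ± 0.33, a call that was lost without LN/PC co-culture 1 (adjusted p = 0.0536), fibroblast library 2 (0.0613) or fibroblast library 3 (0.0717).

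Chains that belong to 1 collagen could be set against each other within each library, a ratio that no centring touches. Between genes these ratios are not per length and are read only for their change. The ratio of COL5A3 to COL5A1 was 0.273, 0.208 and 0.217 in the fibroblast libraries and 0.0521, 0.0259 and 0.0466 in the co-cultures, a log2 change of -2.54 ± 0.34 (SE). COL5A1 to COL5A2 went the other way, from 0.771, 0.845 and 0.813 to 1.74, 1.72 and 1.4. Collagen V chains thus moved apart in every co-culture library, with no overlap with the fibroblasts in either ratio. COL6A3 to COL6A1 was 0.978, 0.942 and 0.987 in fibroblasts and 1.76, 1.44 and 1.96 in co-culture, a change of 0.81 ± 0.13, while COL6A2 to COL6A1 changed by 0.09 ± 0.03. COL1A1 to COL1A2 changed by 0.53 ± 0.05, from 0.908, 0.891 and 0.886 to 1.22, 1.37 and 1.28. The COL6A2 to COL6A1 ratio moved least of the 7 computed. The LN/PC monoculture level of these 2 genes was 2.84% (COL6A2) and 2.99% (COL6A1) of the co-culture level, the largest among the 11 collagens. Whether that bears on the ratio was not tested. All 7 ratios had no overlap between the groups and an exact two-sided permutation p of 0.1, the smallest that 3 against 3 can give, also 0.1 after Benjamini-Hochberg adjustment over the 7. The pairs were picked with the centred differences known.

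Small proteoglycans and matricellular proteins, which decorate collagen fibrils and tune how cells grip them, held 7 members among 34 genes measured. Of these 3 were above the median, 2 below and 2 not called, with a median of 0.62. LUM, the proteoglycan lumican, had 7686, 6846 and 5862 normalized counts in fibroblasts alone and 2835, 873 and 3323 in the LN/PC co-cultures. Co-culture 2 kept far less LUM than the other 2, and the centred difference was 1.12 ± 0.34 (adjusted p = 0.00125). DCN, the related proteoglycan decorin, lay near the median at -0.15 ± 0.38 with 57859.5, 63118 and 52898 normalized counts in fibroblasts alone and 9415, 3657 and 10499 in the LN/PC co-cultures. The ratio of LUM to DCN was 0.133, 0.108 and 0.111 in fibroblasts and 0.301, 0.239 and 0.317 in co-culture, so it rose in every library, by 1.28 ± 0.16 on the log2 scale. LUM and DCN are adjacent coding genes in the RefSeq annotation of GRCh38.p14, as are COL3A1 with COL5A2 and COL6A1 with COL6A2.

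POSTN (periostin), at 0.92 ± 0.34, and THBS2 (thrombospondin), at 0.79 ± 0.34, are secreted proteins that bind matrix and cell surface. Both were called above the median, SPARC, a collagen-binding glycoprotein, was at 0.62 ± 0.37 and not called, and COMP, which links collagen fibrils, was called below at -0.73 ± 0.34. The call of POSTN was lost without LN/PC co-culture 1 (adjusted p = 0.0579), fibroblast library 1 (0.0543) or fibroblast library 3 (0.0730). THBS2 and COMP lost theirs without LN/PC co-culture 1 (0.0751 and 0.270) and without any one of the fibroblast libraries (0.0775 to 0.118 and 0.0913 to 0.135). Yet the centred difference of THBS2 was larger without fibroblast library 3 (0.84) than with all libraries. DPT, dermatopontin, which binds decorin and the surface of fibrils, was far lower: it had 5819, 5357 and 3887 normalized counts in fibroblasts alone and 127, 119 and 341 in the LN/PC co-cultures, a centred difference of -1.96 ± 0.34 (adjusted p = 2.56e-08). DPT in co-culture 3 was well above the other 2 and still far under every fibroblast library.

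Elastic fibre genes lay on both sides of the median, with 6 members of 17 measured, 2 called above, 1 below and 3 not called, and a median of -0.42. LTBP1, which stores latent TGF-beta on microfibrils, was above at 0.98 ± 0.34 (adjusted p = 0.153 with all 15 libraries in the fit), as was FBLN5, a fibulin that guides elastin assembly, at 0.70 ± 0.34. The call of FBLN5 was lost without LN/PC co-culture 1 (adjusted p = 0.160) and without any one of the fibroblast libraries (0.125 to 0.182). FBN2, a fibrillin of the microfibril, had 10146, 10684 and 10775 normalized counts in fibroblasts alone and 697, 598 and 758 in the LN/PC co-cultures and was below at -1.08 ± 0.34 (adjusted p = 0.0016, and 0.0839 with all 15 libraries in the fit). ELN, the gene of elastin itself, had 3278, 4027 and 3939 normalized counts in fibroblasts alone and 284, 450.4 and 332 in the LN/PC co-cultures. ELN was the gene whose co-cultures disagreed most after ADH1B: co-culture 2 lay above the median and the other 2 below, and its centred libraries overlapped those of the fibroblasts. FBLN2, another fibulin, and MFAP4, a microfibril-associated protein, were at -0.33 and -0.52, not called.

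Surface receptors and adhesion molecules lay mostly at the median (9 members of 36 measured, 0 above, 3 below, 6 not called, median -0.16). PDGFRB, the receptor for PDGF-BB, had 7529, 8543 and 8136 normalized counts in fibroblasts alone and 401, 466 and 649.7 in the LN/PC co-cultures. It was below the median in all 3 co-cultures, at -1.16 ± 0.34 (adjusted p = 7.50e-04), and the call was lost without LN/PC co-culture 1 (-0.84, adjusted p = 0.0543). PDGFRA, the related receptor, was at -0.27 ± 0.33 with 5028, 5042 and 5077 normalized counts in fibroblasts alone and 652, 401 and 723 in the LN/PC co-cultures, not called. The ratio of PDGFRB to PDGFRA was 1.5, 1.69 and 1.6 in fibroblasts and 0.615, 1.16 and 0.899 in co-culture, a log2 change of -0.89 ± 0.27. ITGA11, a collagen-binding integrin chain, was below at -1.06 ± 0.33, and TMEM119, a membrane protein of mesenchymal cells, at -0.83 ± 0.34. The TMEM119 call was lost without LN/PC co-culture 1 (adjusted p = 0.159) and without any one of the fibroblast libraries (0.0629 to 0.0810). The collagen receptor DDR2 (-0.16), the mesenchymal cadherin CDH11 (0.00), CD248 (endosialin, -0.07), ITGBL1 (0.12) and the fibroblast surface marker THY1 (0.34) were not called.

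The lowest gene of all belonged to metabolism. ADH1B, an alcohol dehydrogenase that oxidises ethanol and retinol, had 30936, 30859.6 and 26073 normalized counts in fibroblasts alone and 314, 29.5 and 495 in the LN/PC co-cultures. It came to 0.954% of the fibroblast level in co-culture, with co-culture 2 about an order of magnitude under the other 2. The centred difference was -4.57 ± 0.36 (adjusted p = 1.41e-28), with -3.85, -6.48 and -3.39 in the 3 co-cultures (SD 1.66), a spread that the SE, shared over all genes, does not carry. Without co-culture 2 it was -3.65, and it was -3.96 on the deposited log2 values. The adjusted p was 2.89e-04 with 1 constant for all libraries and 0.00521 with the LN/PC monoculture level subtracted. ADH1B has close copies (ADH1A, ADH1C), and how the authors' counting split shared reads is not given, so its level carries that uncertainty. APOD, a lipocalin that carries small lipids, had 9158, 8915 and 8250.0 normalized counts in fibroblasts alone and 291, 153 and 429 in the LN/PC co-cultures. It reached 3.32% of the fibroblast level and a centred difference of -2.16 ± 0.33 (adjusted p = 7.09e-10). ADH1B and APOD were the 2 members of the lipid, retinoid and adipogenic list, and both were called below the median. Of the 20 other genes of that list tested, 1 was called lower and 15 higher on the centred scale, against 1.16% and 94.6% of all tested genes.

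Of 3 secreted signals and 1 cross-linking enzyme, 3 were called below the median. IGFBP2, which binds insulin-like growth factors, had 13246, 12601 and 12089.6 normalized counts in fibroblasts alone and 585, 317 and 629 in the LN/PC co-cultures, a centred difference of -1.82 ± 0.34 (adjusted p = 1.60e-07) with an SD of 0.073 over the 3 co-cultures. SLIT3, a ligand of Robo receptors, had 11763, 14073 and 12049 normalized counts in fibroblasts alone and 624, 481 and 765 in the LN/PC co-cultures. Every SLIT3 co-culture was far under every fibroblast library, and the centred difference was -1.49 ± 0.34 (adjusted p = 1.57e-05). GREM1, a secreted BMP antagonist, had 12078, 10366 and 10756 normalized counts in fibroblasts alone and 1489.7, 685 and 1421 in the LN/PC co-cultures. GREM1 was at -0.42 ± 0.34 and not called, although all 3 co-cultures lay under the median. LOXL4, a lysyl oxidase that cross-links collagen and elastin, was called below at -0.73 ± 0.33. Its call was lost without LN/PC co-culture 1 (adjusted p = 0.143) and without any one of the fibroblast libraries (0.0931 to 0.158).

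The 10 members outside the lists held 3 genes above the median, 3 below and 4 not called. AQP1, a water channel of the proximal tubule that fibroblasts also express, had 6193, 6990.2 and 6944 normalized counts in fibroblasts alone and 109.6, 67.6 and 184 in the LN/PC co-cultures. It fell to 1.8% of the fibroblast level (centred difference -3.04 ± 0.34, adjusted p = 1.53e-16, and -2.40 on the deposited log2 values), and the LN/PC monocultures, with no fibroblasts, had 13.5, 12 and 5.29. NID1 (nidogen, a basement membrane linker) was at -0.96 ± 0.34 and VGLL3, a cofactor of TEAD transcription factors, at -0.77 ± 0.34, both called below. With all 15 libraries in the fit the calls of NID1 (adjusted p = 0.0887) and MXRA8 (0.0985) were lost. The VGLL3 call was lost without LN/PC co-culture 1 (adjusted p = 0.128) and without any one of the fibroblast libraries (0.0838 to 0.101). CCDC80, a secreted matrix protein, had 19842, 22814 and 21261 normalized counts in fibroblasts alone and 8144, 4075 and 8579 in the LN/PC co-cultures. CCDC80 was above the median at 1.17 ± 0.36, and so was MXRA8, a matrix-associated membrane protein, at 1.02 ± 0.33, together with MME. CLDN11 (a claudin, 0.06), ADGRA2 (an adhesion receptor, 0.09), CLEC3B (tetranectin, 0.20) and PCDH18 (a protocadherin, 0.33) were not called.

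**Figure D3:**
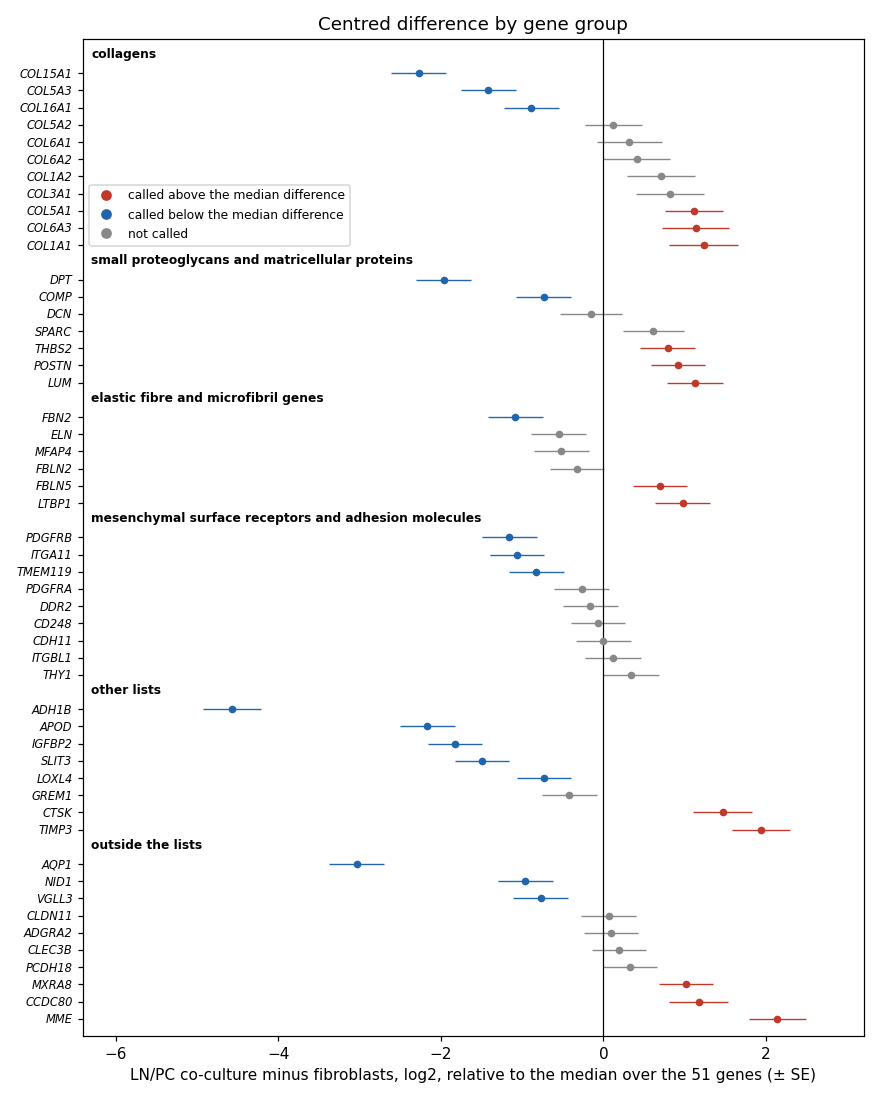
Centred log2 difference between LN/PC co-culture and fibroblasts for each gene, with bars of 1 SE, grouped by role, where 0 is the median over the 51 genes. Collagens spread from COL15A1 at -2.27 to COL1A1 at 1.23, and the receptors and adhesion molecules hold no gene called above the median.

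The co-culture libraries differed more from each other than the fibroblast libraries did. After centring, the SD over the 3 co-cultures had a median of 0.25 over the 51 genes and that over the 3 fibroblast libraries 0.079. ADH1B had the largest SD over co-cultures (1.66), and ELN came next (0.80). For 43 of the 51 genes all 3 co-cultures lay on the same side of the median. Before centring co-culture 2 was the lowest for 48 genes and co-culture 3 the highest for 36. Over the 51 genes, which share their libraries and are not replicates, the centred difference and the fibroblast level had a Spearman's rho of 0.288 and a Pearson's r of 0.222 (log2 level). The fibroblast level is itself part of the centred difference and of the rule, so nothing is read from these 2 values.

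The rule chose genes that are low in epithelial cells grown alone, so the epithelial level is given as a description. The level in LN/PC monocultures was 0.0548% of that in LN/PC co-cultures at the median gene, and 19 of the 51 genes were at 0 in all 3 LN/PC monocultures. It passed 1% for 6 genes, with AQP1 at 8.51%, COL6A1 at 2.99%, COL6A2 at 2.84%, CCDC80 at 1.76%, CTSK at 1.11% and PDGFRA at 1.08%. With the LN/PC monoculture level subtracted from the co-cultures, 16 genes were called above the median and 13 below. That step changed all genes of the fit, and the centred median of all tested genes went from 2.85 to -2.28. COL1A2, at 0 in all LN/PC monocultures, kept its centred difference of 0.71, yet its limma adjusted p went from 0.0962 to 0.00229. The counts are therefore no measure of the epithelial background of the 51 genes. Whether epithelial cells change these genes when fibroblasts are present was not tested.

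Fibroblasts were also seeded on silk, and there the same genes were close to absent. Summed over the 51 genes, the silk co-cultures held 0.240%, 0.214% and 0.315% of the fibroblast level, against 0.148%, 0.15% and 0.147% in silk monocultures and 22.9%, 15% and 26.6% in LN/PC co-cultures. COL15A1, APOD, DPT and POSTN were at 0 in all 3 silk co-cultures. By limma over the 4 epithelial groups, 8 of the 51 genes were called higher in silk co-cultures than in silk monocultures (2.91% of the 14433 genes tested were called higher and 0.866% lower) and 0 lower, at an adjusted p under 0.05. At an unadjusted p under 0.05, 17 genes were higher (9.71% of all tested genes) and 1 was lower (7.26%), PDGFRB, with 1.01, 0.356 and 4.24 normalized counts in silk co-cultures and 15.8, 5.16 and 9.73 in silk monocultures. The silk monocultures helped to choose the genes, for a low level there, so this count is a description. The same holds for the differences, SE and adjusted p of single genes on silk given below, which are no support.

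GREM1 was the gene with the largest share of its fibroblast level on silk (1.29%). It had 128, 139 and 159.5 normalized counts in silk co-cultures and 8, 19.9 and 23.7 in silk monocultures, a log2 difference of 3.10 ± 0.41 (adjusted p = 2.98e-04). MME was at 118, 61.4 and 153 against 5.17, 15.1 and 7.96 (3.44 ± 0.52, adjusted p = 8.96e-04) and 1.28% of the fibroblast level, so MME was near the top of the 51 genes in both kinds of co-culture. SPARC was at 34.3, 18 and 40.3 against 3.55, 5.65 and 3.25 (2.58 ± 0.34), and COL5A1 at 153, 121 and 179.9 against 47.2, 42.7 and 66.5 (1.53 ± 0.23). Every silk co-culture lay above every silk monoculture in these 4 genes, and likewise in TIMP3, DDR2 and PDGFRA. For TIMP3 that rests on 0.918 normalized counts in silk co-culture 2 against 0. The share of all tested genes without overlap on silk was not computed, so nothing is read from this. TIMP3 (3.89 ± 0.84), DDR2 (2.39 ± 0.55), PDGFRA (2.32 ± 0.58) and COL3A1 (3.61 ± 0.96) were the 4 others. Each of them reached 10 normalized counts in only 2 of the 6 silk libraries and was tested only because the LN/PC co-cultures passed the filter. In a fit of the silk libraries alone these 4 were not tested, and GREM1, MME, SPARC and COL5A1 were called. COL3A1 had 44.3, 0 and 39.5 in silk co-cultures and 0 in all silk monocultures, and TIMP3 28.9, 0.918 and 55.6 against 0, so co-culture 2 on silk held almost none of either. Those 4 calls were lost when single silk libraries were left out, for example without silk co-culture 3 (adjusted p = 0.103, 0.15, 0.178 and 0.257 for TIMP3, DDR2, PDGFRA and COL3A1). Silk co-culture 3 was the highest of the silk co-cultures in 31 of the 51 genes.

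Of the 8 genes, 3 (MME, TIMP3 and COL5A1) were among the 13 above the median on LN/PC, 5 among the 21 not called, and 0 among the 17 below. Among the 8, TIMP3, DDR2, PDGFRA and COL3A1 were tested only because the LN/PC co-cultures passed the filter, so nothing is read from that split. At an unadjusted p under 0.05, where 9.71% of all tested genes were higher, the numbers were 6 of 13, 9 of 21 and 2 of 17 (FBN2 and TMEM119), and nothing is read from them, since most of these genes passed the filter only through the LN/PC co-cultures. The median level on silk was 0.110% of the fibroblast level for the 13 genes above, 0.0807% for the 21 not called and 0.0231% for the 17 below. Those levels are near the floor of a library, and the difference between the gene groups was not tested. By a rough estimate from the spacing of low values, 3 reads are worth 2.27 to 3.92 normalized counts.

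**Figure D4:**
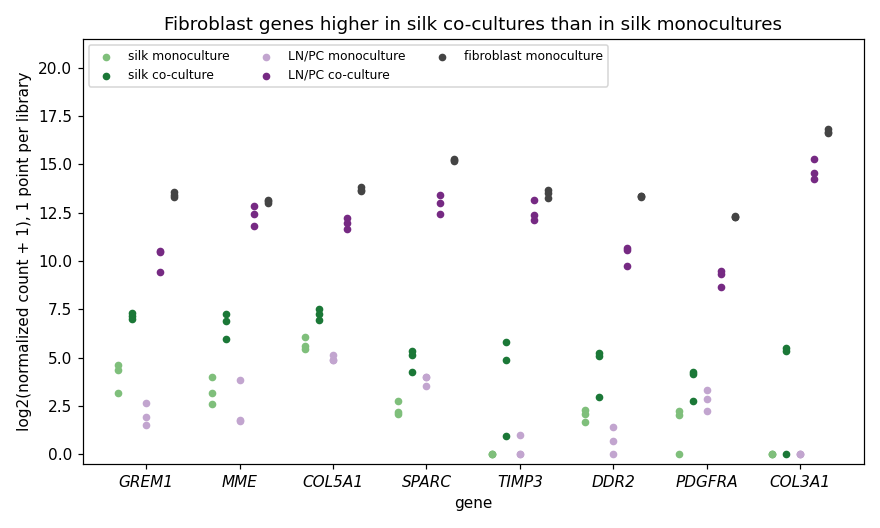
The 8 genes called higher in silk co-cultures than in silk monocultures, as log2(normalized count + 1), 1 point per library of all 5 groups. All but COL3A1 have all 3 silk co-cultures above all 3 silk monocultures, TIMP3 and COL3A1 have 1 silk co-culture at or near 0, and the LN/PC co-cultures lie above the silk co-cultures for all 8. The genes were chosen for a low level in silk monocultures, so the separation on silk is a description.

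Most genes of the same pathways did not meet the rule. Of 20 lists, 10 held no member: HOX genes, mesenchymal transcription factors, contractile genes, cytokines, Wnt genes, hyaluronan, complement, prostanoid, interferon and proliferation genes. The deposited log2 values have a floor of 5.53664461, so the rule also requires a high fibroblast level. The lowest fibroblast mean of a chosen gene was 2950 normalized counts. OGN (fibroblast mean 623) and PRELP (1204) were at 0 in all epithelial monocultures, yet reached gaps of only 3.93 and 4.79 units. The empty lists are therefore no result about whether their genes mark fibroblasts. On the centred scale, where 94.6% of all genes were called higher and 1.16% lower, 2 of 50 tested mesenchymal transcription factors (MEOX2 and MKX) were called lower, 2 of 16 other collagens (COL12A1 and COL14A1), 7 of 27 other proteoglycan and matricellular genes, and 6 of 38 growth factors and antagonists. OGN, ASPN, OMD, PODN and PRELP, small leucine-rich proteoglycans like LUM and DCN, were among those 7, with ECM2 and THBS4.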

How the data were processed

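Per the submitters' processing notes, Salmon 1.10.3 and DESeq2 were used. The build, the annotation and the options of DESeq2 were not stated. What the authors deposited as normalized counts are log2 values that never go below 5.53664461, as a variance-stabilizing transformation gives. They were inverted to normalized counts, which sum to 9.08 to 12.7 (1e6) per library, about 8.5 to 14.1 (1e6) reads. Over 13121 genes the inverted size-factor ratio was 1.01175 in every library. The number of reads and the worth of 1 read were estimated from the spacing of low values. Of low values, 26.9% to 49.2% fell within 0.1 of a whole read, so these estimates are rough. Count models were therefore not fitted. That the values were logged was found after the design, written for normalized counts, had been set.

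Differences were tested with limma 3.58.1 (limma-trend, under R 4.3.3) on log2(normalized count + 1), for genes at 10 or more in 3 libraries, with Benjamini-Hochberg adjustment. The 51 genes all pass that filter through the fibroblast libraries. The fit shares its spread over all tested genes, each shifted with its library, so standard errors are alike (0.334 to 0.422). They can fall short of a single gene's own spread or exceed it. IGFBP2, for example, had an SD of 0.073 over the centred co-cultures and an SE of 0.336. With only the 51 genes shifted, 18 were called above the median and 21 below. The code was tested on simulated data. Genes named as outstanding were the 12 largest called differences in each direction, up to 3 per list and a panel of markers. The remaining members are given by value. The genes and lists were chosen with earlier results of these data known. Alternatives changed the rule, pseudocount, filter, centring, libraries and adjustment. The value of 3 reads covers counting error only, and a ± after a centred difference is limma's SE over 3 libraries per group.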

Additional observations from a re-analysis of the deposited data

How the results depend on the processing

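No called gene changed direction under the alternatives run. Of the 30 called genes 8 (ADH1B, APOD, AQP1, COL15A1, DPT, IGFBP2, MME and TIMP3) were called under every alternative, 21 whenever any single library was left out, and 9 (COL16A1, COMP, FBLN5, LOXL4, PDGFRB, POSTN, THBS2, TMEM119 and VGLL3) lost their call without some library. Without fibroblast library 3, THBS2 (0.84) and TMEM119 (-0.88) lay farther from 0 than in the main fit (0.79 and -0.83), yet lost their calls. A lost call is therefore no measure of how far a gene depends on that library. The counts above and below the median, 13 and 17, became 28 and 30 with the rule at 5 units (89 genes), 0 and 2 at 8 units (9 genes), 3 and 26 with centring on the summed genes, 8 and 10 with all 15 libraries in the fit, and 2 and 6 with Bonferroni adjustment. Leaving out 1 library gave 10 to 17 above and 11 to 20 below, with 11 below without LN/PC co-culture 1. With only the 51 genes centred, added after seeing the data, they were 18 and 21. At 8 units the median difference was -2.25 and the interquartile range 0.97. Without 1 library these ran from -3.03 to -2.56 and from 1.55 to 1.73.

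The 8 genes higher in silk co-cultures became 4 on the deposited log2 values, 5 with a pseudocount of 10, 2 at 8 units, 4 in a fit of the 6 silk libraries (where 14 of the 51 genes reached the filter), 2 with Bonferroni adjustment and 4 to 12 without 1 library (5 without silk co-culture 1, 4 without silk co-culture 3, 5 without silk monoculture 2). The labels do not state whether replicate numbers pair the samples. Same-numbered LN/PC co-culture and fibroblast libraries correlated at -0.135, 0.0362 and -0.219, and same-numbered silk libraries at -0.104, 0.109 and -0.0928. Differently numbered LN/PC co-culture and fibroblast libraries ran from -0.116 to 0.257. With 3 libraries per group these values can neither show nor exclude pairing. With the replicate block 11 genes were above, 13 below and 9 higher on silk. Where a count moved with the rule, the number of genes differs by construction. For the other settings the cause was not tested. Depth limits the silk levels, where 19 of the 51 genes average over 10 normalized counts.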

Other observations

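Of the 13974 tested genes that missed the rule, 145 were called below the median of the 51 genes (limma, adjusted p under 0.05). Of all tested genes 1.16% were called lower, so the count is no result about fibroblast genes. At least 100 normalized counts in fibroblasts were found for 111 of the 145. Those named here were chosen after their values were seen. SVEP1, a large matrix and adhesion protein just outside the rule, had 2956, 3123 and 2593 normalized counts in fibroblasts and 25.1, 17.7 and 40.9 in LN/PC co-cultures, which is 0.965% of the fibroblast level and as low as ADH1B. Its centred difference was -3.85 ± 0.36 (SE), and it was at 0 in all 3 LN/PC monocultures. EPHB6, an Eph receptor, had 1385, 1820.1 and 1697 and 23.9, 4.62 and 20.9 (-3.94 ± 0.38), and the LN/PC monocultures had 4.95, 31.6 and 9.46, which overlap the co-cultures. COL14A1, a fibril-associated collagen, had 2715, 2813 and 2514 and 35.8, 52.1 and 78.1 (-2.78 ± 0.35), a position near that of COL15A1 and unlike that of COL1A1. The LN/PC monocultures had 18.2, 8.77 and 17.8 of COL14A1, whereas COL15A1 was at 0 in all of them.

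Several genes of secreted or sensed signals were in the same range. ACKR4, a scavenging chemokine receptor, had 1688, 1320.3 and 1176 normalized counts in fibroblasts and 29.8, 13 and 38.9 in LN/PC co-cultures (-2.87 ± 0.37), and CMKLR1, the chemerin receptor, 1885, 1980.4 and 1996 and 37, 24 and 71.1 (-2.71 ± 0.36). Both were at 0 in all LN/PC monocultures. RSPO1, a secreted enhancer of Wnt signalling, was at 335, 249 and 238 in fibroblasts, 3.93 in co-culture 1 and 0 in the other 2. Every co-culture library of these 3 genes lay far below every fibroblast library.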
